A study of Mus musculus with 6 samples.

Results

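The Id family of bHLH inhibitors has 4 genes in the mouse, Id1, Id2, Id3 and Id4, and each matched 1 row, by gene symbol, of a table of 20175 genes. All 4 were among the 16064 genes with a mean normalised count of at least 10 over the 6 libraries, on which the test was run. Poly-A RNA was sequenced from mouse retina on postnatal day 2 (P2), with 3 samples labelled only as control and 3 labelled as Zeb2 mutant, whose genotype the series' design gives as Zeb2 loxp/loxp αCre. The αCre driver is a Cre recombinase transgene active in progenitors of the peripheral retina, and cells outside its domain keep Zeb2. The strain, the alleles carried by the controls and whether a sample was 1 animal or a pool are not stated in the labels. The p-values therefore cover only the variation among these 6 samples, part of which may be technical. By its title the study asks how Zeb2 acts on BMP-Smad signalling in the choice between interneurons and Müller glia.

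Id proteins have a helix-loop-helix domain for pairing but lack the basic region with which bHLH factors hold DNA. They bind the E proteins, the common partners of tissue-specific bHLH factors, and so keep proneural factors from forming active dimers. BMP receptors activate the Smad proteins Smad1, Smad5 and Smad9, which with Smad4 induce Id genes in many cell types, and Zeb2 is a zinc-finger repressor that binds Smads. In the developing retina Id genes are known from progenitors and glia.

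How alike the members are in sequence bears on whether reads of one could be counted for another. The stretch of 90 coding bases most alike in the 4 genes was taken from the GENCODE M21 transcripts (GRCm38), and capitals mark the 54 bases that are identical in all of them.
Id1: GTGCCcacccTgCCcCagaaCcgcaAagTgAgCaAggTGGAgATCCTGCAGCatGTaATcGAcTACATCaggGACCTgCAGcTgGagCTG
Id2: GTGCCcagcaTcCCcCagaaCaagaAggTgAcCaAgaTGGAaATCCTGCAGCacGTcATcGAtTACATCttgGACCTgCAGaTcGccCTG
Id3: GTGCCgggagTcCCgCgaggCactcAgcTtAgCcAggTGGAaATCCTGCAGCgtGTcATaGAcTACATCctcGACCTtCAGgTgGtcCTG
Id4: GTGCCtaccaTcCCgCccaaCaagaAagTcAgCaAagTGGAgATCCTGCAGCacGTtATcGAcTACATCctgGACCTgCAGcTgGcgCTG
In this stretch Id1 and Id4 matched at 82.2% of bases, Id2 and Id4 at 81.1%, Id1 and Id2 at 78.9%, and Id3 matched the others at 66.7% to 70.0%. Over the whole transcripts the longest exact run shared by any pair was 19 bases, between Id2 and Id3, and the longest that Id4 shared with another member was 18 bases, with Id2.

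The genes lie on 4 chromosomes of GRCm38, all protein-coding. Id1 spans 152736251 to 152737410 of chromosome 2 (plus strand), Id2 25093799 to 25097140 of chromosome 12 (minus strand), Id3 136143497 to 136145755 of chromosome 4 (plus strand) and Id4 48261228 to 48266026 of chromosome 13 (plus strand). Since the 3 mutant values of each member all exceeded its control values, the promoters of Id2, Id3 and Id4 are printed from 250 bases before to 50 bases after the RefSeq start (build GRCm38.p6), the 3 of the 4 members that the RefSeq promoter table matched. Capitals mark, on either strand, CACCT (the core of the E-box bound by ZEB proteins), GGCGCC (a GC-rich BMP response element) and CAGAC (a Smad binding element).
Id2, chr12:25096043-25096342, minus strand: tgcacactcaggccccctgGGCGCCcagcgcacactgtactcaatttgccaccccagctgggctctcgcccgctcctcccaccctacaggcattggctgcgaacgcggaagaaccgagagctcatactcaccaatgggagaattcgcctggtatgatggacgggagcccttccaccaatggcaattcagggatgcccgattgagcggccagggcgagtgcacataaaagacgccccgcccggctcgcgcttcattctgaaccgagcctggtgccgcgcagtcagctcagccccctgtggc
Id3, chr4:136143572-136143871, plus strand: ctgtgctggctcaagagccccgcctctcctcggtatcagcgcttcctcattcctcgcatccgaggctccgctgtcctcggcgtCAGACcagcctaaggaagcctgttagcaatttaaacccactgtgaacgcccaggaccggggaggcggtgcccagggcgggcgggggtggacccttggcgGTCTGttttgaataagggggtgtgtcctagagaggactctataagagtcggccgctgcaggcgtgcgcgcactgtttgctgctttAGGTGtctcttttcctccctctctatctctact
Id4, chr13:48260866-48261165, plus strand: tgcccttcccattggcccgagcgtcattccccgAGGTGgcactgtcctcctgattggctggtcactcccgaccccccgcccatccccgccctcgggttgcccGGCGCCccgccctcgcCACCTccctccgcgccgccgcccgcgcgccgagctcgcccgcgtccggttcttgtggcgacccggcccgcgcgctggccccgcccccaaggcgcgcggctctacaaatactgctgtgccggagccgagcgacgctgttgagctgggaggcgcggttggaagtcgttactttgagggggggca
The Id4 window held CACCT at 2 places, starting 217 and 132 bases before the start, and GGCGCC at 148 bases before it. The Id2 window held GGCGCC 231 bases before the start, and the Id3 window CAGAC at 167 and 68 bases before the start and CACCT from position 18 after it. CACCTG, the fuller ZEB E-box that contains CACCT, was in none of the 3 windows, and CANNTG, the general E-box that contains CACCTG, was in that of Id2 alone. Of 32817 such windows of all genes, 51.9% held CACCT, 20.2% CACCTG, 11.9% GGCGCC, 49.6% CAGAC and 72.3% CANNTG on either strand. The windows are also rich in G and C, at 63.3% for Id2, 60.0% for Id3 and 73.3% for Id4 against a median of 52.7%. A match is a match of letters and shows no binding.

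Zeb2 itself was first checked against the labels. Its normalised count was 5989.7, 6448.7 and 5916.7 in control libraries 1, 2 and 3 and 5581.4, 4273.6 and 5049.7 in the mutant libraries. Every mutant library was below every control library, at 81.2% of the control mean, but the drop missed the threshold (log2 fold change -0.31 ± 0.090, SE; limma adjusted p = 0.129, against 0.0375 without mutant library 1 and 0.0155 with DESeq2). The count covers the whole gene, so it does not measure the share of cells in which Zeb2 was deleted. The libraries held 26041200 to 32614805 reads on genes, recovered from the normalised values. Retinal markers were abundant in all of them: the normalised count of Crx, a photoreceptor factor, was 21164.1 to 26955.8, and that of Pax6, a factor of progenitors and inner retinal neurons, was 16408.3 to 20613.3.

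Id4 was the member with the largest difference and the only one called by the main test. Id4 stood at 1348.1, 1199.1 and 1389.5 normalised counts in the controls, against 2530.7, 3150.3 and 2234.4 in the mutants, from 1143 to 3256 recovered reads per library. The lowest mutant library, mutant 3, was well above the highest control, and mutant 2 was the highest of all. The mean rose 2.01-fold, from 1312 ± 100.1 to 2638 ± 467 (SD, n = 3 each), a log2 fold change of 0.995 ± 0.12 (SE; 95% interval 0.73 to 1.26; limma adjusted p = 0.0111). Fold changes come from log2(normalised count + 1), and a call is an adjusted p under 0.05, by Benjamini-Hochberg over all tested genes. By p-value Id4 ranked 24th of 16064 genes, and 1.38% of genes had a log2 fold change as high. Without control library 1 the call was lost (limma adjusted p = 0.0635) at a similar log2 fold change of 1.02, and with any other library left out it held (0.0111 to 0.0333).

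Id1, Id2 and Id3 were higher in the mutants by less, and none passed the test across all genes. Id1 had 1443.9, 1587.3 and 1670.4 normalised counts in the controls, against 2000.3, 2476.9 and 1698.1 in the mutants. Mutant 3 stood just above the highest control, so the groups are apart by a narrow gap. The Id1 means were 1567 ± 115 and 2058 ± 393 (SD, n = 3 each), a log2 fold change of 0.38 ± 0.12 (SE; 95% interval 0.099 to 0.66; limma adjusted p = 0.161).

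Id2, which is also known to bind the retinoblastoma protein, had 1879.4, 1954.4 and 2261.1 in the controls, against 2488.5, 3230.6 and 2426.3 in the mutants. Control 3 was the highest control, and mutants 1 and 3 lay close above it. The Id2 means were 2032 ± 202 and 2715 ± 447 (SD, n = 3 each), a log2 fold change of 0.41 ± 0.11 (SE; 95% interval 0.15 to 0.67; limma adjusted p = 0.113).

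Id3 had 2085, 2421.3 and 2219.6 in the controls, against 2531.8, 3042.9 and 2646.7 in the mutants. Its highest control, control 2, lay close to its lowest mutant, mutant 1. The Id3 means were 2242 ± 169 and 2740.5 ± 268 (SD, n = 3 each), a log2 fold change of 0.29 ± 0.080 (SE; 95% interval 0.11 to 0.47; limma adjusted p = 0.115).

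**Figure D1:**
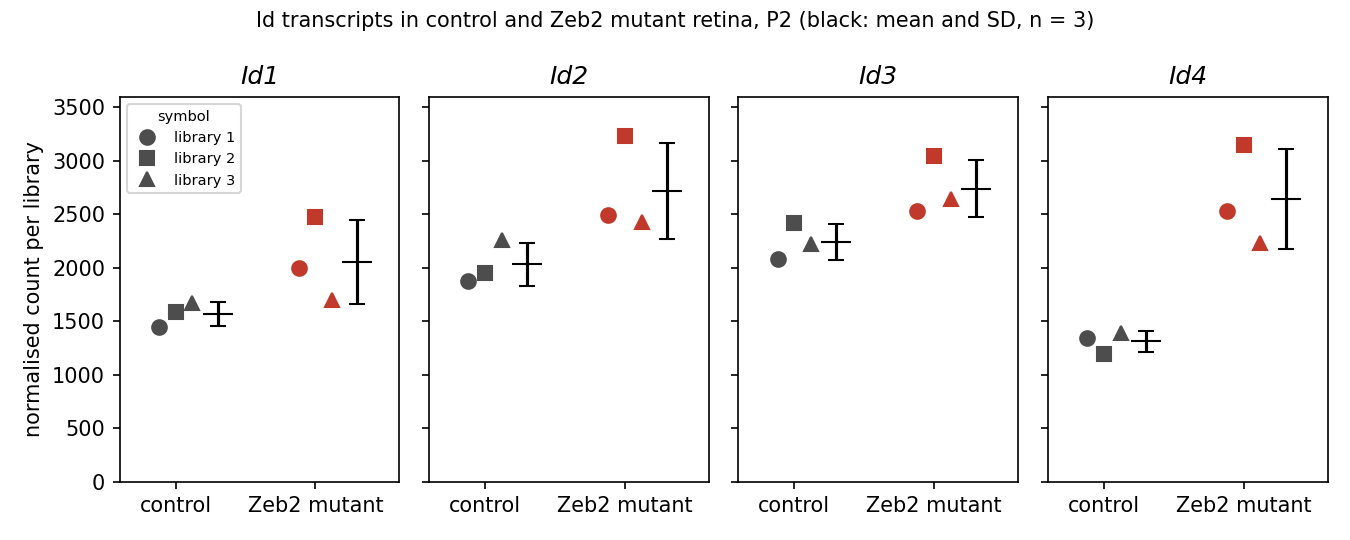
Normalised count of Id1, Id2, Id3 and Id4 (vertical axis) in each control (grey) and Zeb2 mutant (red) library, with the symbol giving the library number and the black bar the mean and SD of 3 libraries. Every mutant value lies above every control value, with the widest gap for Id4 (1389.5 to 2234.4) and the narrowest for Id1 (1670.4 to 1698.1).

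Of the 4 members 1 was called, while 1.15% of the 16064 tested genes were called in either direction, 0.928% higher and 0.218% lower. Before adjustment all 4 had a p under 0.05 and were higher (0.0138, 0.00589, 0.00618 and 1.66e-05 for Id1 to Id4 by limma), as 9.01% of tested genes were. A log2 fold change above 0 was found for all 4 and for 48% of tested genes. All 4 members had 3 mutant values above the 3 control values, as did 11.5% of the tested genes. The exact permutation test of each member's 6 values gave a 2-sided p of 0.1, the smallest that 3 against 3 libraries allow. DESeq2 on the recovered reads called all 4 members (adjusted p = 0.0203 for Id1, 0.00511 for Id2, 0.0189 for Id3 and 7.16e-16 for Id4), beside 3.48% of its tested genes called higher, whereas edgeR's quasi-likelihood test on the same reads called 1 member, Id4 (adjusted p = 0.0135), beside 0.915% called higher.

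The spread between libraries was wider than counting error, which was 1.73% to 2.96% of the value for any member in any library. Between controls the coefficient of variation was 7.31% for Id1, 9.95% for Id2, 7.55% for Id3 and 7.63% for Id4, and between mutants it was 19.1%, 16.5%, 9.78% and 17.7%. Mutant 2 was the highest library for each of the 4 members and the lowest for Zeb2. The other mutants did not keep this order: mutant 3 had less Zeb2 than mutant 1 (5049.7 against 5581.4). Yet Id1, Id2 and Id4 were lower in mutant 3 than in mutant 1, and only Id3 was higher. The log2 difference of mutant 2 from the control mean was 0.66 for Id1, 0.67 for Id2, 0.44 for Id3 and 1.27 for Id4. For mutant 3 these differences were 0.12, 0.26, 0.24 and 0.77. In mutant 3 Id1 was thus near the controls while Id4 was not.

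Whether Id4 moved more than the others was asked of the ratio between members within each library, in which the scaling of the library cancels. The log2 ratio of Id4 to each other member was higher in every mutant than in any control. Id1 changed by 0.62 less than Id4 on the log2 scale, Id2 by 0.58 less and Id3 by 0.71 less. Each of these 3 differences had an exact 2-sided permutation p of 0.1, the smallest possible, and 0.2 after Benjamini-Hochberg adjustment over the 6 pairs compared, so this exact test cannot place them past the threshold. The other 3 pairs differed by -0.032 (Id1 minus Id2), 0.091 (Id1 minus Id3) and 0.12 (Id2 minus Id3), and their groups overlapped (exact permutation p = 0.4 to 0.6).

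Per length of exon the order of the members was another. The length counts every base of any annotated exon, 1160 for Id1, 2438 for Id2, 1791 for Id3 and 3849 for Id4. Which of these exons are used in the samples was not tested. The levels per kilobase, their order and the shares depend on it. In controls Id1 had 1351 ± 98.8 and Id3 1252 ± 94.5 normalised counts per kilobase of exon. Their ranges overlapped, but within each control library Id1 was the higher (1244.7 against 1164.2, 1368.4 against 1351.9 and 1440 against 1239.3). This difference was given no test. Id2 followed with 833 ± 82.9 and Id4 was lowest with 341 ± 26.0 (SD, n = 3 each), each below the member above it in every control library. Of the tested genes with a length, 94.1% had a lower level per kilobase in controls than Id1, 93.5% than Id3, 88.4% than Id2 and 70.4% than Id4. The mutant levels per kilobase were 1775 ± 338 for Id1, 1530 ± 150 for Id3, 1114 ± 184 for Id2 and 685 ± 121 for Id4 (SD, n = 3 each), with the means in the same order. The ranges of Id1 and Id3 overlapped again. Id1 was above Id3 in mutants 1 and 2 and below it in mutant 3 (1463.9 against 1477.8). Summed over the family the level was 3777 ± 224 in controls and 5104 ± 772 in mutants (SD, n = 3 each), a ratio of 1.35 that was given no test.

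The share of Id4 within the family was larger in the mutants. Id4 held 9.92%, 8.13% and 9.10% of the summed level per kilobase in the controls, against 13.7%, 13.7% and 12.9% in the mutants. The groups do not overlap, and the mutant values lie close together although their sums ran from 4517 to 5978. Id2 had a share of 20.9% to 23.4% in controls and 21.2% to 22.2% in mutants, Id1 had 35.7% ± 0.518 and 34.6% ± 1.94, and Id3 33.2% ± 2.02 and 30.2% ± 2.26 (SD, n = 3 each). The ranges of these 3 overlapped between the groups. Of the difference between the summed group means, Id1 made up 31.9% and Id4 26.0%.

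**Figure D2:**
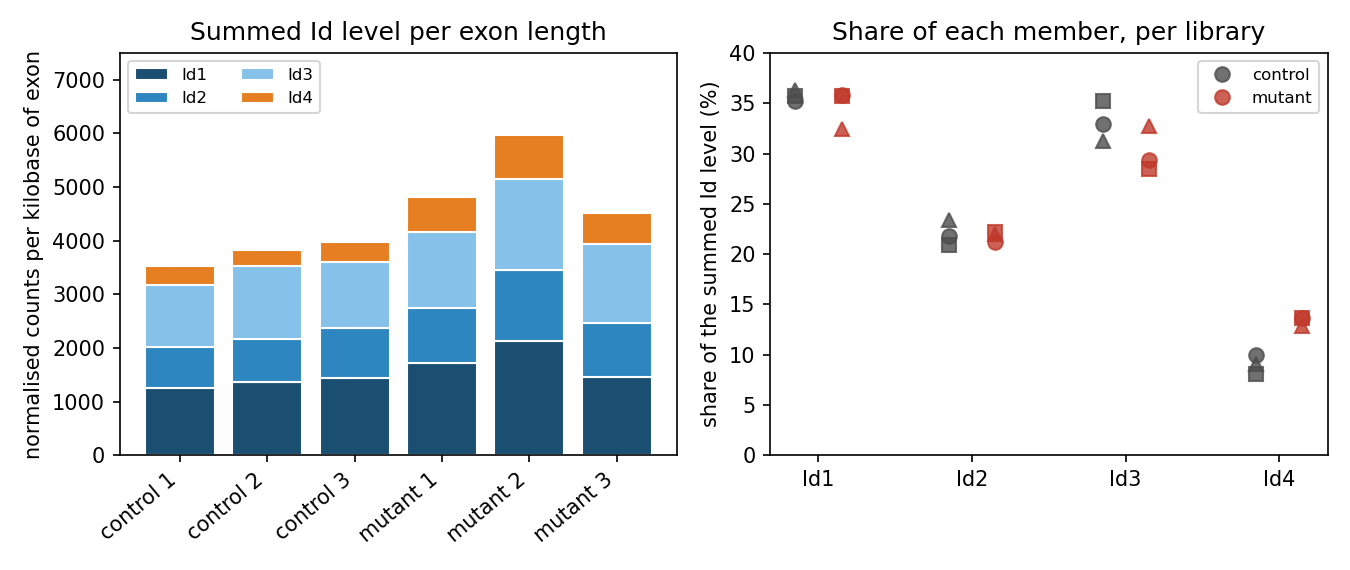
Left, normalised counts per kilobase of exon of the 4 Id genes stacked for each library; right, the share of each gene in that sum (%), with controls in grey, mutants in red and the symbol giving the library number as in the plot of single values. The Id4 share is 8.13% to 9.92% in controls and 12.9% to 13.7% in mutants, while the shares of the other 3 overlap.

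Genes around each member were also examined, as the 3 nearest genes of the table on each side plus any that overlapped, a description with no list fixed beforehand. At first 1 gene on each side was examined, and the set was widened to 3 after the values beside Id4 had been seen. The lincRNA gene A330048O09Rik, 6387 bases from the end of Id4, had normalised counts of 4.3, 2.1 and 5.1 in the controls, against 22.2, 37.7 and 37.6 in the mutants. No mutant value was near the controls, and the gene passed the filter on low values through the mutants alone, since its control mean was 3.83. It rose 8.48-fold, or 2.81 ± 0.38 (SE) on the log2(value + 1) scale (limma adjusted p = 0.0169), on 12 control and 97 mutant reads. The call was lost without control library 1 (limma adjusted p = 0.0770) and without mutant library 2 or 3 (0.0825 and 0.0583), and with mutant 3 as the only mutant (0.0803). A330033J07Rik, an antisense gene that overlaps Id4, had 27.7, 22 and 19.5 normalised counts in the controls, against 34.9, 67.7 and 36.6 in the mutants, apart but not called (limma adjusted p = 0.159). Whether reads were counted by strand is not stated in the labels, so its reads cannot be told apart from those of Id4.

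Of the other 5 tested neighbours of Id4 none was called. Rnf144b, the nearest gene of the table on the other side at 1013237 bases, was higher in every mutant library at 3846.3, 4913.1 and 4168.1 against 3066.7, 3501.8 and 3236.8, a log2 fold change of 0.39 ± 0.089 (SE; limma adjusted p = 0.0770). Beside Id1, Cox4i2, a subunit gene of cytochrome oxidase 16763 bases away, had a log2 fold change of 0.51 ± 0.10 (SE; limma adjusted p = 0.0601). Beside Id2, Cmpk2, a mitochondrial nucleotide kinase gene 1372064 bases away, was called with a log2 fold change of 0.56 ± 0.10 (SE; limma adjusted p = 0.0433), a call lost without any 1 of control libraries 1, 2 and 3 and mutant libraries 2 and 3 (0.169, 0.114, 0.0690, 0.152 and 0.102). None of the tested neighbours of Id3 was called. Of all 22 tested neighbours 2 were called, beside 1.15% of all tested genes. Of the 22, 6 were higher in every mutant library and 3 lower, beside 11.5% and 11.7% of all tested genes. A330048O09Rik, which passed the filter through the mutants alone, is among the called and the higher ones. A330033J07Rik, whose reads cannot be told apart from those of Id4, is among the higher ones. As the set was also widened after values were seen, these counts cannot show an excess over the shares. The 3 lower ones were Dek beside Id4 (log2 fold change -0.21; limma adjusted p = 0.156), E2f2 beside Id3 (-0.27; 0.246) and H13 beside Id1 (-0.059; 0.542).

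**Figure D3:**
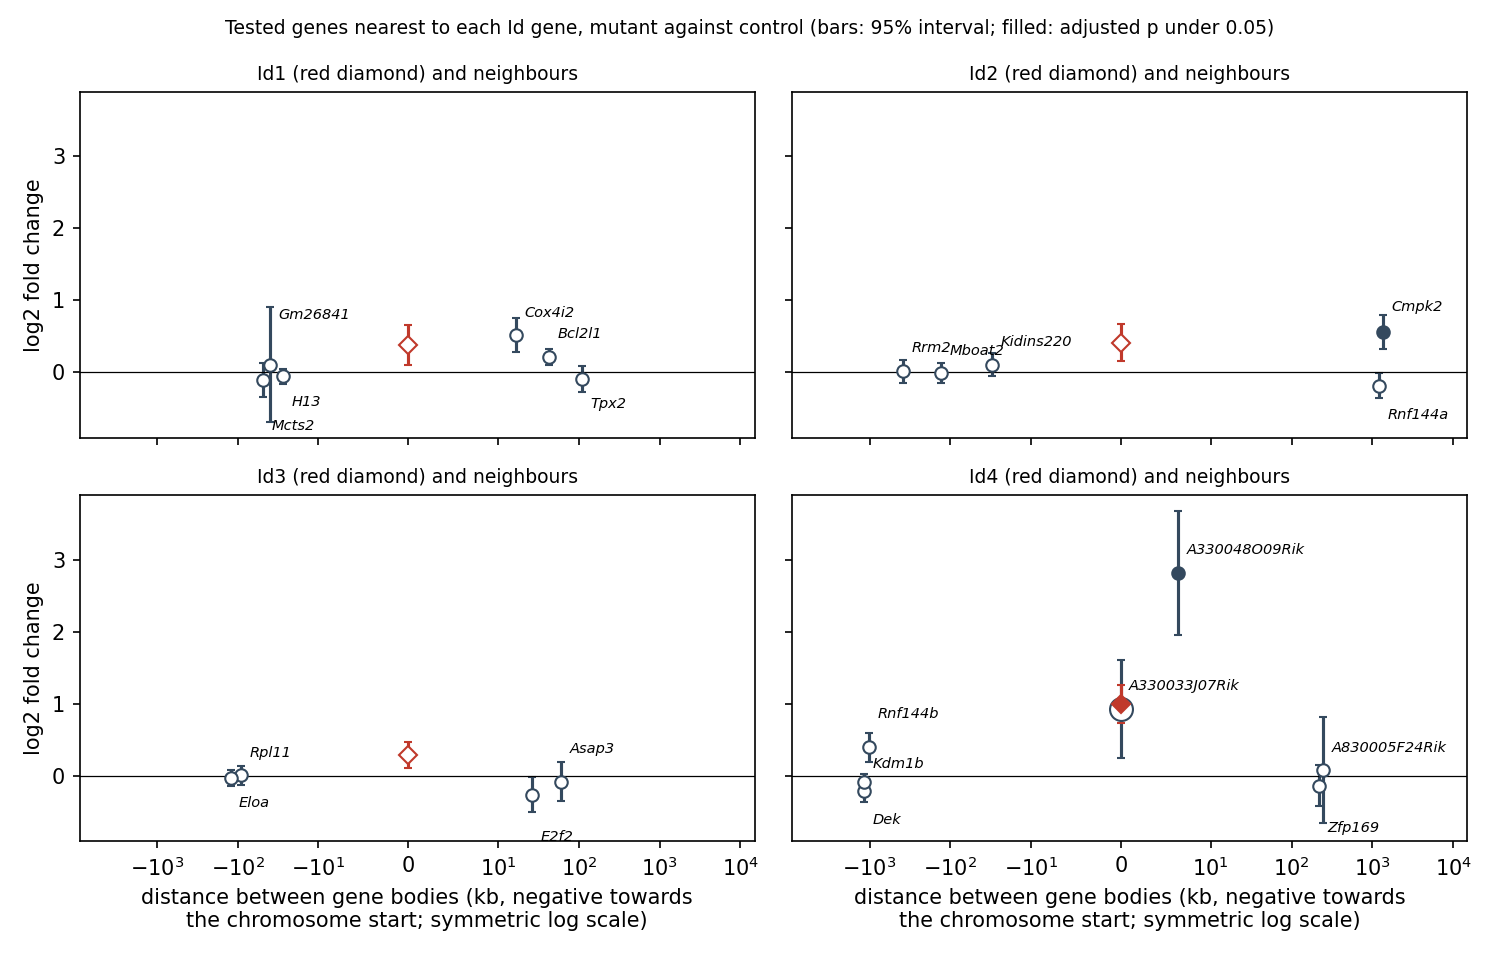
Log2 fold change, mutant against control, of each Id gene (red diamond at 0) and of the tested genes nearest to it, against the distance between gene bodies in kb on a symmetric log axis; bars are 95% intervals and filled symbols were called. At Id4 the lincRNA A330048O09Rik stands at 2.81, above Id4 itself at 0.995, with the overlapping antisense gene as a large open circle at 0.93.

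The genes most like each member over the 6 libraries were taken among 12173 others with a mean of at least 100, by Pearson r of the log2 values. These points are the same 6 libraries, 3 of each group, and with so few points many genes reach a high r. Since the groups did not overlap for any member, a gene chosen for its likeness to one tends to differ between the groups too. The p-values given for such genes are therefore no separate support. For Id4 they were Col6a2 (r = 0.998), Ascc1 (r = 0.996) and Igfbp2 (r = 0.996). Col6a2, a collagen VI chain gene, rose, with 316 ± 31.0 normalised counts in controls and 782 ± 139 in mutants (SD, n = 3 each; limma adjusted p = 0.00637), and Igfbp2, a binding protein of insulin-like growth factors, also rose, with 3135 ± 273 and 6246 ± 1293 (limma adjusted p = 0.0169; 0.0945 without control library 1). For Id2 they were Jazf1, Gcnt2 and Ech1 (r = 0.9996, 0.9996 and 0.995), for Id3 Ppcs, Rnf144b and Pofut2 (r = 0.998, 0.992 and 0.991) and for Id1 Edf1, Chsy1 and Mpc1 (r = 0.995, 0.992 and 0.992), of which none was called. Between members r ran from 0.85 (Id3 and Id4) to 0.96 (Id1 and Id2), and between each member and Zeb2 from -0.92 (Id2) to -0.83 (Id1). Each of these r includes the difference between the groups.

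Among the bHLH factors that Id proteins act on, limma called no gene with all 6 libraries. Of the 3 E protein genes 0 were called, with log2 fold changes of -0.14 for Tcf3, -0.11 for Tcf4 and -0.045 for Tcf12. Tcf12 overlapped between the groups, at 7249.7 to 7868.1 against 7628.6 to 8124.8 normalised counts. Of 10 tested proneural and neurogenic bHLH genes 0 were called and 7 had a negative log2 fold change, with a median of -0.17 against -0.0067 for all tested genes. The 2 most abundant, Neurod1 and Neurod4, stood at 0.043 and -0.13. Ptf1a and Bhlhe22, factors of amacrine and horizontal cells and of amacrine and bipolar cells, lay lower in every mutant library but were not called (log2 fold change -0.62 and -0.41; limma adjusted p = 0.0982 and 0.0586; both singled out after their values were seen). Bhlhe23 did not pass the filter. At an unadjusted limma p under 0.05, 1 E protein gene and 4 proneural genes were lower and 0 of either list higher, beside 8.31% of all tested genes that were lower. Without mutant library 1 limma called 3 of the 10 proneural genes lower, and with mutant 3 as the only mutant 1. For both lists edgeR also called 0 genes, while DESeq2 called 0 E protein genes and 2 of the proneural genes, both lower, beside 2.18% of its tested genes called lower (edgeR 0.205%).

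Most Hes and Hey genes encode bHLH repressors of the Notch pathway. Of 6 tested, 1 was called, lower, beside 0.218% of all tested genes. Heyl had a mean of 4151 ± 176 normalised counts in controls and 3289 ± 125 in mutants (SD, n = 3 each), a log2 fold change of -0.34 ± 0.051 (SE; limma adjusted p = 0.0240). Leaving out control 1 (0.124), control 2 (0.0722), mutant 2 (0.0811) or mutant 3 (0.0583) ended that call. Hes6, the most abundant, stood at 0.034. Hes1 and Hey1, singled out after their values were seen, had every mutant value above every control value, but were not called (log2 fold change 0.36 and 0.28; limma adjusted p = 0.112 and 0.117). DESeq2 called 2 genes of this list higher and 1 lower, beside 3.48% and 2.18% of its tested genes.

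The other genes known to be induced by BMP signalling included no call in the direction of Id4. Of 10 tested, 0 were called higher and 1 lower, beside 0.928% and 0.218% of all tested genes. Of these 10, 9 had a negative log2 fold change, and the median was -0.21. With 1 library left out the median ran from -0.30 (without control 3) to -0.14 (without control 2). Msx1 and Grem1 were high in control 2, at 109.1 and 230.8 normalised counts. In controls 1 and 3 Msx1 had 31.9 and 13.5, and Grem1 37.3 and 23.7. Tbx2, which encodes a dorsal T-box factor, stood at 14391.4, 14508.7 and 13974.3 normalised counts in controls 1 to 3, and at 11973.2, 11264.9 and 11355.7 in mutants 1 to 3. All mutants lay below all controls (log2 fold change -0.31 ± 0.046, SE; limma adjusted p = 0.0237). Leaving out control 1 (0.122), control 2 (0.0736), control 3 (0.0580), mutant 2 (0.0811) or mutant 3 (0.0545) ended that call. Tbx3, the next most abundant, stood at -0.17 (limma adjusted p = 0.228). Smad6 and Smad7, the inhibitory Smads that BMP signalling induces, were at -0.11 and -0.20 (limma adjusted p = 0.644 and 0.192; singled out after their values were seen). Msx2 did not pass the filter. At an unadjusted limma p under 0.05, 4 of the 10 were lower, Msx1 among them, and 0 higher, beside 8.31% and 9.01% of all tested genes. DESeq2 called 2 lower and 0 higher, beside 2.18% and 3.48% of its tested genes.

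None of the tested BMP ligand, receptor or Smad genes was called. Of 6 ligand genes 5 had a negative log2 fold change, with a median of -0.53. Their summed normalised count was 1203.3 in control 2 against 566.9 to 613.3 in the other controls and 376.8 to 658.2 in the mutants, and without control 2 the median was -0.21. In control 2 the summed count of 5 lens markers was also high, at 8883.5 against 1079.7 and 2155.3 in the other controls and 623.1 to 2752.4 in the mutants. Of the ciliary margin markers, Otx1 and Wfdc1 were high there too, at 265.4 and 275.9 against at most 50 and 42.6 in any other library, while the sum of all 5 was 5895.8 in control 2, 4536.2 and 4663.4 in the other controls and 4985.7 to 6609.2 in the mutants. Their part in the BMP ligand values was not tested. Gdf6 had 117.1, 187.8 and 97.3 in the controls, against 69.7, 43.5 and 71.1 in the mutants (log2 fold change -1.09; limma adjusted p = 0.0982), and Bmp7, the most abundant, overlapped between groups (-0.48; limma adjusted p = 0.414). Of 11 receptor and Smad genes 6 were below 0, and the 2 most abundant, Smad5 and Bmpr2, were at -0.023 and 0.024. Genes of Id protein turnover were not called either: of 4, Usp1, which encodes a deubiquitinase that stabilises Id proteins, had -0.21 (limma adjusted p = 0.107) and Fzr1 -0.092. Of 6 CDK inhibitor genes, some of which E proteins activate, 0 were called, and Cdkn1b and Cdkn2c stood at 0.036 and -0.15. At an unadjusted limma p under 0.05, 1 ligand gene, 2 receptor or Smad genes, 1 turnover gene and 2 CDK inhibitor genes were lower. Higher at that level was 1 receptor gene, Bmpr1b (log2 fold change 0.46, not called, singled out after its values were seen). Of all tested genes 8.31% were lower and 9.01% higher at that level. Over these 4 lists edgeR called 0 genes. DESeq2 called 1 ligand, 1 turnover and 1 CDK inhibitor gene, each lower, beside 2.18% of its tested genes. Without mutant library 1 limma called 1 turnover gene lower.

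**Figure D4:**
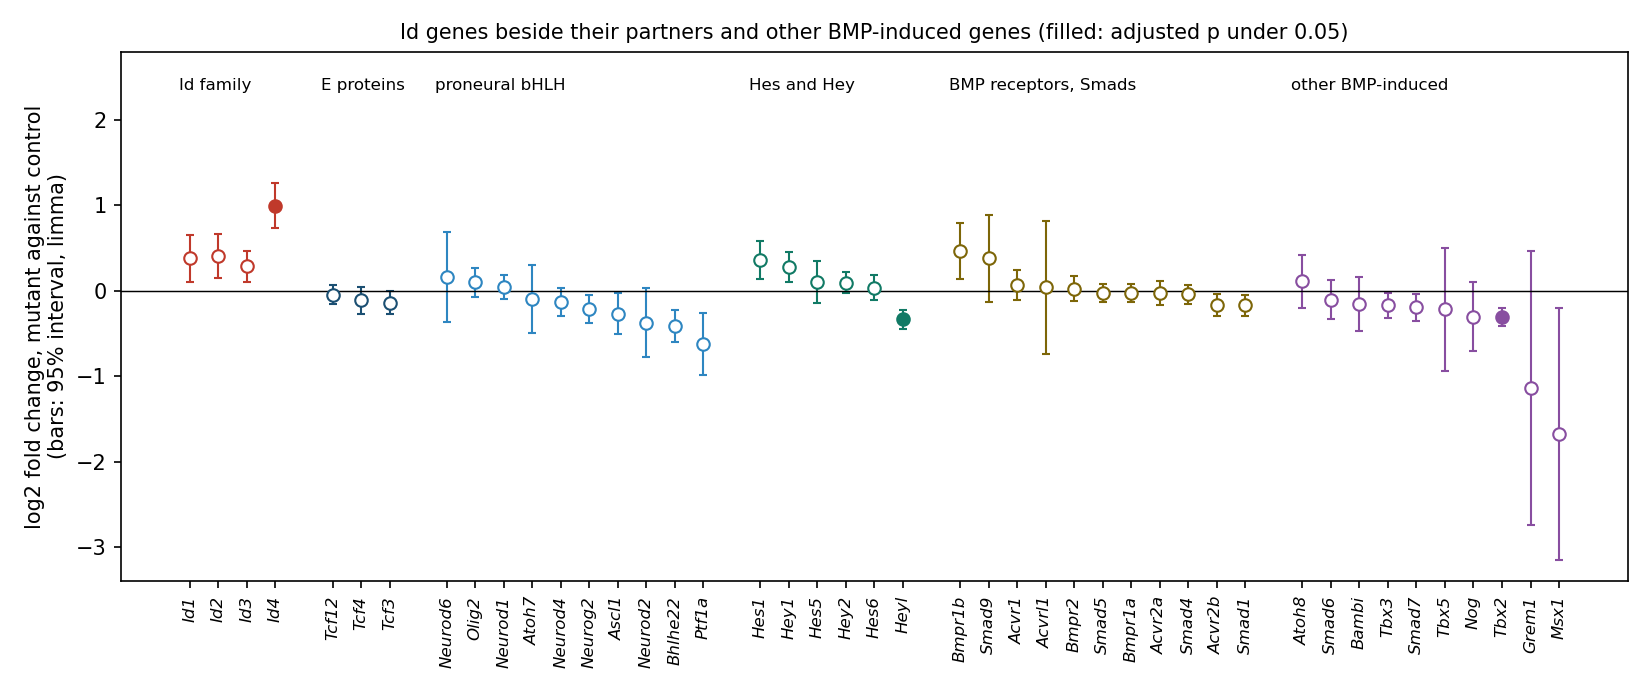
Log2 fold change, mutant against control, with 95% intervals from limma, of the 4 Id genes and of the tested E protein, proneural bHLH, Hes and Hey, BMP receptor and Smad and other BMP-induced genes; filled symbols were called. The 4 Id genes stand at 0.29 to 0.995 and the other BMP-induced genes, apart from Atoh8 at 0.11, below 0.

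Id genes are also expressed by astrocytes, vessel cells and connective tissue, whose markers differed between libraries. In bulk samples, a change in the number of cells of a type and one in RNA per cell cannot be told apart. All 5 astrocyte markers had positive log2 fold changes and 0 were called. Their summed count was 1913.6 to 2580.2 in controls and 7609.2, 5891.4 and 2311.6 in mutants 1, 2 and 3, and Gfap stood at 143.8 to 466.3 in controls and at 5130.2, 3772.4 and 234.6 in the mutants. The sum of 9 mesenchyme and pericyte markers was 571.9 to 1565.2 in controls and 727.2 to 7072.3 in mutants, with 6 of 9 above 0 and 0 called. The 6 were Col1a1, Col1a2, Col3a1, Dcn, Lum and Postn. The 3 below 0 were Pdgfrb, Rgs5 and Acta2, with log2 fold changes of -0.31, -0.49 and -1.02, so the list did not move as 1. The sum of 10 endothelial markers was 18975.6 to 21547.9 in controls and 18233.1 to 20399 in mutants, with 9 of 10 below 0 and 0 called. Kdr made up most of that sum, at 17838.3 to 20105.1 in controls and 17338.1 to 19206.6 in mutants. The median over the 10 of the log2 difference from the control mean was -0.62, 0.38 and 0.15 in controls 1 to 3. In mutants 1 to 3 this median was 0.27, -0.63 and -0.016. The sum of 6 microglia markers was 1312.9 to 2365.7 in controls and 2107.5 to 2673.4 in mutants, with all 6 above 0 and 0 called. No marker of these lists was at 0 in all libraries. At an unadjusted limma p under 0.05, 4 astrocyte, 1 mesenchyme and 1 microglia marker were higher and 1 endothelial marker was lower. Of all tested genes 9.01% were higher and 8.31% lower at that level. DESeq2 called 2 astrocyte markers higher, beside 3.48% of its tested genes, and none of the other 3 lists. EdgeR called 0 in all 4, and limma without mutant library 3 called 2 astrocyte markers higher.

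In mutant 3 the astrocyte and mesenchyme sums were within the range of the controls, and Id4 was 1.70-fold the control mean. Of the 5 astrocyte markers, Gfap, Pdgfra and S100b lay within the control range in mutant 3, while Pax2, at 351.4 against 227.9 to 286.9, and Aldh1l1, at 76.2 against 37.3 to 59.2, lay above it. In that library, a single sample, the log2 difference from the control mean was 0.77 for Id4, 0.12 for Id1, 0.26 for Id2 and 0.24 for Id3. The part of these cells in the Id levels of any mutant library was not tested. Of 16 markers of Müller glia and late progenitors, cells that express Id genes within the retina, 0 were called higher and 1 lower, Sox9, which fell by 0.28 ± 0.050 (SE; limma adjusted p = 0.0379; 0.0856 to 0.140 without any 1 library other than mutant 1). Of these 16 markers 10 had a log2 fold change above 0. At an unadjusted limma p under 0.05, 2 were higher and 3 lower, beside 9.01% and 8.31% of all tested genes. DESeq2 called 3 higher and 2 lower, beside 3.48% and 2.18% of its tested genes. Limma without mutant library 1 called 2 higher and 1 lower. Other retinal marker lists with calls were horizontal cells (2 of 6 lower), amacrine cells (1 of 6 lower) and rods (2 of 5 higher). Over all tested genes limma called 0.218% lower and 0.928% higher. With 1 library left out the counts ranged from 0 to 3 in each of the 3 lists. Without control library 1 all 3 had 0 calls, and without mutant library 1 each had 3. DESeq2 called 4, 4 and 3, beside 2.18% of its tested genes called lower and 3.48% higher. The horizontal list also had 0 without control library 3, the amacrine list without control library 3 or mutant library 2 or 3, and the rod list without mutant library 2. Ganglion cell, ciliary margin, pigment epithelium and lens lists had 0 calls by limma and by edgeR. In those 4 lists an unadjusted p under 0.05 was found for 1 ganglion cell and 1 ciliary margin marker, both higher, and 1 lens marker, lower, and DESeq2 called 1 ganglion cell marker higher.

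**Figure D5:**
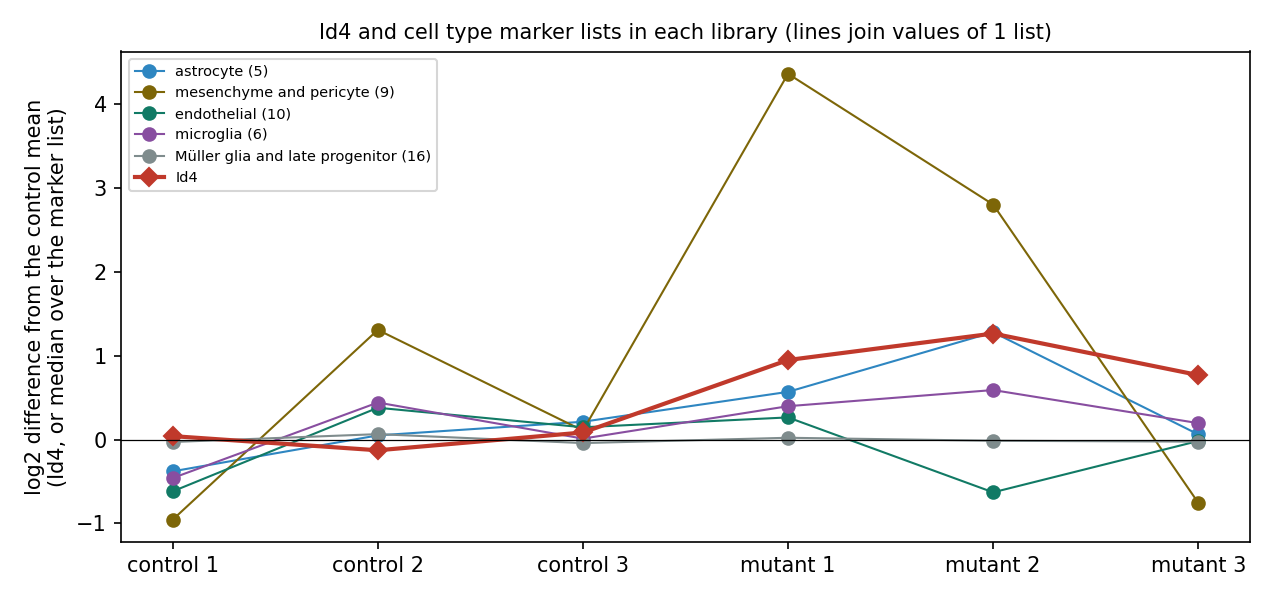
Log2 difference from the control mean in each library of Id4 (red diamonds) and of the median over 5 marker lists, with the number of markers in brackets. Mutants 1 and 2 stand at 4.37 and 2.81 for the mesenchyme and pericyte list and mutant 3 at -0.75, while Id4 stands at 0.95, 1.27 and 0.77. Pdgfrb, Rgs5 and Acta2 of that list had negative log2 fold changes, which its median does not show.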

How the data were processed

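The deposited signal values are normalised counts per gene and library, per the file headers, written to 1 decimal. How they were normalised is not stated. Tools listed in the submitters' processing notes, with no role given, are STAR 2.4.2a, DESeq2, HTSeq and cutadapt, and the listed build is GRCm38. In each library 100% of values lay within 0.06 of whole multiples of 1 step, as reads divided by 1 size factor would, and whole reads were recovered this way, 26041200 to 32614805 per library.

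Groups were compared on log2(value + 1) by limma 3.58.1, run in R 4.3.3 with its trend option and no covariate, over 16064 genes whose mean reached 10. It called 184 genes, and edgeR 4.0.16 on the recovered reads called 180. DESeq2 1.42.0, other pseudocounts, filters and scalings, array weights, a replicate block and left-out libraries were alternatives. The steps were tested on simulated data, with 40 abundant genes given each log2 change. There limma called 27.5% of the genes changed by 0.3 and 72.5% of those changed by -0.5. It called 100% of those changed by 0.5, 1 or -1. A missing call at a change near 0.3 is thus no sign that a gene did not change. Intervals are given for log2 fold changes only, come from limma and rest on the variation between libraries, not on counting error alone. Libraries of a group differed by more than sampling noise (chi-square per degree of freedom 8.05 to 15.0).

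Exon lengths, neighbours and coding sequences came from GENCODE M21, which held 20122 of the 20175 IDs. Named genes were the 4 members, Zeb2, up to 4 called members of each list, filled to 2 with the most abundant, and the 3 genes most like each member. The members and lists were chosen with earlier results of these data known. Gdf7 and Rpe65, on 2 lists, are not analysed here. A marker gene is not reported here.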

Additional observations from a re-analysis of the deposited data

How the results depend on the processing

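Over 19 alternatives the 4 members kept their direction: Id4 ranged from 0.77 to 1.11 on the log2 scale and was called in 17, Id1 ranged from 0.12 to 0.51, Id2 from 0.26 to 0.49 and Id3 from 0.21 to 0.34. With no filter on low values Id4, at 0.995, was not called (limma adjusted p = 0.0673), the number of members called was 0, and 24 genes were called higher and 2 lower, against 149 and 35. DESeq2 called 4 members, with Id1 at 0.39, Id2 at 0.42 and Id3 at 0.29, and Zeb2 at -0.30, and 537 genes higher and 337 lower, 61.4% higher against 81.0%. With 1 library left out, Id4 ranged from 0.86 to 1.11, Zeb2 from -0.40 to -0.20, the members called from 0 to 1, all genes called higher from 27 to 358 and lower from 0 to 242. Id1 ranged from 0.24 to 0.51, Id2 from 0.28 to 0.49 and Id3 from 0.21 to 0.34 there. Without control library 1 the number of members called was 0. Without mutant libraries 1 and 2, 86 genes were called higher and 79 lower. The difference of Id1 minus Id2 turned from -0.032 to 0.0041 without control library 2 and to 0.023 without mutant library 3 (range -0.077 to 0.023), and Id1 minus Id3 to -0.12 without mutant libraries 1 and 2. The cause was not tested.

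Deviations from the group means had r = 0.016, 0.15 and -0.063 in control and mutant libraries with the same number in their titles. The column headers instead number the mutants on from the controls, so the labels state no pairing. For pairs of other numbers r ran from -0.24 to 0.22. With 3 libraries a group these r cannot decide whether libraries were paired. The replicate block matched libraries by title number, a pairing that the labels do not state. With it Id3 was called at 0.29 (limma adjusted p = 0.0418), the members called were 2, Id4 and Id3, and 58 genes were called lower against 35. No scaling moved the median of all genes by more than 0.1 on the log2 scale. The design with 3 libraries a group cannot give a permutation p under 0.1.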
